A study of Rattus norvegicus with 6 samples.

Results

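Cytokines, chemokines and the receptors that read them are the signals by which brain cells and immune cells inform one another of injury. The genes examined here are those whose symbols belong to the chemokine, interleukin, tumour necrosis factor (TNF), interferon, colony-stimulating factor, leukemia inhibitory factor (LIF), ciliary neurotrophic factor (CNTF) and Toll-like receptor families, taken by symbol and by no measured value of the gene. The families, and the marker and pathway lists used below, were chosen with earlier results of these data known. Of the 13355 genes tested on rat gene arrays, 141 were members. A further 19 symbols of these families, among them Il6, Il1a, Il1rl1, Cxcr2 and Tlr3, stood only on probes with no value on any array, and the symbol Il13ra1-ps1 stood only on a probe shared with another gene; these 20 were not analysed here.

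The arrays were hybridised with RNA from cultured oligodendrocyte progenitor cells (OPCs), glia that divide and go on to form the oligodendrocytes that make myelin. The 3 fibrinogen arrays came from OPCs given fibrinogen, the clotting protein of blood plasma, for 48 h in differentiation medium, and the 3 control arrays from unstimulated OPCs carrying the same 48 h in their titles, whose medium is not stated. Cells of both groups were taken from rat pups on postnatal day 1 or 2 and kept in proliferation medium, which held PDGF and NT3, before treatment. Strain, sex and the purity of the cultures are not given in the labels, and nothing says whether the 3 arrays of a group were separate cultures, so p-values measure the spread between these arrays only. The study's title concerns fibrinogen, BMP signaling in OPCs and the repair of myelin.

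Values are the authors' deposited log2 expression levels, so a difference of 1 is a factor of 2. Array medians over 23631 valued probes lay between 5.78 and 5.84. No detection call accompanies the values, and the median of the control arrays (5.79) is used below as a mark of brightness; since probes differ in affinity, a value above or below it does not rank genes by transcript number. All 7 measured OPC markers lay above that median in control, as did all 7 oligodendrocyte and all 7 astrocyte markers, and 5 of 6 neuronal markers, against 2 of 20 microglia and macrophage markers, 0 of 4 endothelial markers and 0 of 7 lymphocyte markers. These are cultures measured as a whole, so fewer cells of a type and less RNA per cell cannot be told apart.

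As background, ligands such as LIF, CNTF and interleukin 6 bind receptors that share the signalling chain gp130 (Il6st) and act through JAK kinases and STAT3. The interleukin 1 and Toll-like receptors act through the adaptor MyD88 on NF-kB, as TNF receptors do through other adaptors, whereas chemokine receptors are G protein-coupled and steer migration. In the brain, OPCs are known to respond to CXCL12 through CXCR4, and LIF and CNTF are known to favour survival and maturation of oligodendrocytes and the induction of astrocyte genes.

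Most members were dim and moved little. In control, 26 of the 141 (18.4%) lay above the array median, against 56.2% of all genes tested. With fibrinogen, 7 members rose and 2 fell at an adjusted p of 0.05 in limma, and 132 did not pass. These 9 are 6.38% of the members, a share near the 7.16% of all genes that passed. By direction, 4.16% of all genes rose and 3.00% fell. The median log2 fold change, fibrinogen over control, was -0.0033 for the members and 0.0033 for all genes, and 119 members changed by less than 0.25 in either direction. The groups did not overlap for 23 members (16.3%), 15 with fibrinogen higher and 8 with fibrinogen lower, against 27.0% of all genes. After centring of arrays on their medians, that split was 11 higher and 11 lower.

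More of the bright members than of the dim ones were called, as among all genes. Of the 26 members above the control median, 4 rose (Lifr, Cntfr, Cx3cl1 and Cxcr4), 1 fell (Tnfrsf19) and 21 did not pass. The share called was 19.2%, where 10.9% of all genes above that median were called. Of the 115 below it, 3 rose (Il18, Il1r1 and Il33) and 1 fell (Tnfsf4), a share of 3.48%, where 2.34% of all genes below it were called. Receptors counted 4 rises and 1 fall among 66 members, and ligands with their soluble inhibitors 3 rises and 1 fall among 75. No test of these differences was made.

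**Figure D1:**
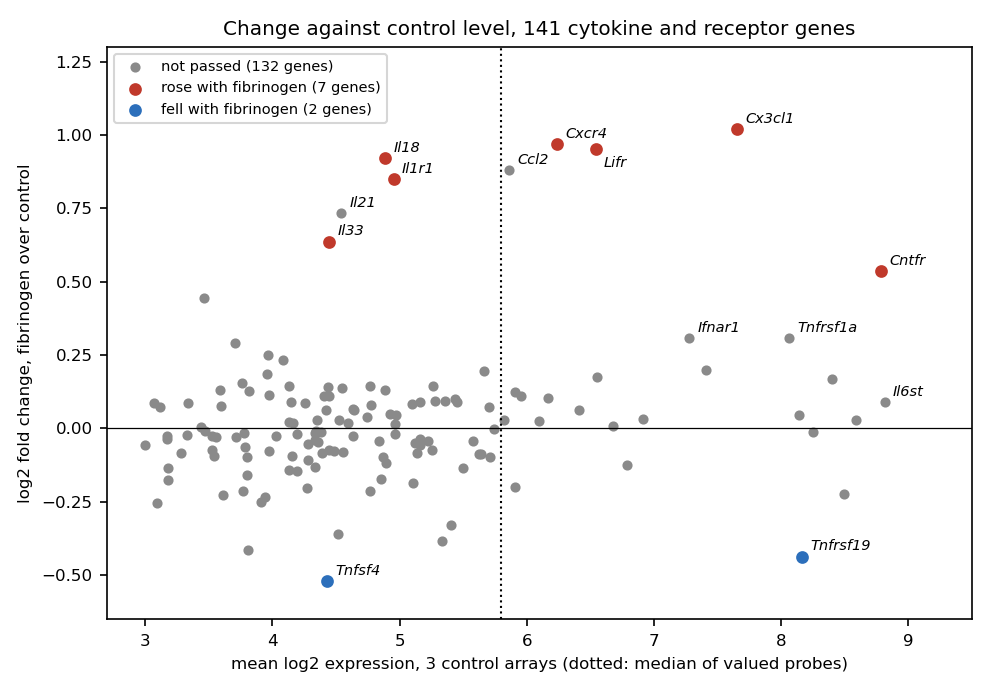
Log2 fold change, fibrinogen over control (vertical axis), against the mean log2 expression of the 3 control arrays (horizontal axis) for the 141 members. Each point is a gene, red where it rose, blue where it fell and grey where it did not pass an adjusted p of 0.05; the dotted line is the median of valued probes, 5.79, with 26 members to its right.

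Promoter sequence is available from RefSeq (rat build GRCr8) for 106 of the members and for all called members except Cntfr and Tnfsf4. It is shown for the 3 genes above the control median that rose about 2-fold, and for Il1r1, whose window held a match to the kappaB consensus, the motif that NF-kB binds. Each run covers 250 bases before the transcription start and 50 after it, in the direction of transcription, and capitals mark a match to a searched motif. Coordinates and strands are chr2:57963139-57963438 (plus) for Lifr, chr13:42634239-42634538 (minus) for Cxcr4, chr19:10242771-10243070 (minus) for Cx3cl1 and chr9:50034133-50034432 (plus) for Il1r1.
Lifr: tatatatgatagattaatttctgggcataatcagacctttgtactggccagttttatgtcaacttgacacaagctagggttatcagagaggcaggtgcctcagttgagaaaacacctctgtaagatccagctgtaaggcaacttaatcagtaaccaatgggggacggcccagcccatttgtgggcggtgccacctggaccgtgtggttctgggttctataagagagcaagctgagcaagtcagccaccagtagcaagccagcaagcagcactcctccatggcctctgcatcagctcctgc
Cxcr4: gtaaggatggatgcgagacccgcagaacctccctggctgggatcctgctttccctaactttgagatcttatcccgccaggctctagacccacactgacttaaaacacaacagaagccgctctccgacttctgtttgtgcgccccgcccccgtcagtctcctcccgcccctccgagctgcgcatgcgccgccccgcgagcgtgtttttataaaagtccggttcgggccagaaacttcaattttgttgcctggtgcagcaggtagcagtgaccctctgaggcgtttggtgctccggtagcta
Cx3cl1: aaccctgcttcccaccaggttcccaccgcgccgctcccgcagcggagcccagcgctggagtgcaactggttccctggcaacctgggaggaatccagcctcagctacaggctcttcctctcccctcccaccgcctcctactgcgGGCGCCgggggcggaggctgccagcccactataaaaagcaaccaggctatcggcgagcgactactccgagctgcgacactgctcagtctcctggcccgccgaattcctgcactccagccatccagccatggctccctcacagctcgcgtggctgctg
Il1r1: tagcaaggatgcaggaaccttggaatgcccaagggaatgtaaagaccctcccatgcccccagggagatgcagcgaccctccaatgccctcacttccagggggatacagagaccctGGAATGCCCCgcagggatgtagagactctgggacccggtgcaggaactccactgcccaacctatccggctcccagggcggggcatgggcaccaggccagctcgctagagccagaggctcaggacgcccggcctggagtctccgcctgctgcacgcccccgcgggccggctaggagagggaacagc

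Motifs of 3 kinds were searched on both strands, overlaps with one another being allowed: the kappaB consensus, the STAT palindrome TTCNNNGAA, and GGCGCC, a GC-rich element to which BMP-activated SMAD proteins bind. Of 8 promoter windows of called members (Il33 has 2), 1 held the kappaB consensus (Il1r1, starting 135 bases before the transcription start), 1 held GGCGCC (Cx3cl1, starting 107 bases before it) and none held the STAT palindrome. The kappaB consensus was present in 7.51% of all 33469 promoter windows and in 18.3% of the 109 windows of members. For TTCNNNGAA these shares were 11.9% of members' windows and 8.87% of all windows, and for GGCGCC 7.34% of members' windows and 11.0% of all windows. By composition the Cx3cl1, Il1r1 and Cxcr4 windows were 66.3%, 65.3% and 58.0% G and C, beside a median of 51.7% over all windows; the Lifr window lay just under that median. These are matches of letters only and show no binding.

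The receptors Lifr and Cntfr rose, and their ligands and shared chain did not pass the test. Lifr, the receptor chain that binds LIF and joins the CNTF receptor complex (probe set 10813445), read on the log2 scale 7.47, 7.47 and 7.54 on the fibrinogen arrays, against 6.54, 6.49 and 6.59 on the control arrays. Every fibrinogen array lay well above every control array, with a spread within each group of 0.1 or less. Its rise of 1.94-fold (a log2 change of 0.95 with SE 0.07; adjusted p = 0.00162) had the smallest p-value of the 141 members. Cntfr, the chain that gives the complex its specificity for CNTF (10882367), read 9.28, 9.33 and 9.36 with fibrinogen and 8.77, 8.85 and 8.74 in control. Its groups were again apart, and it rose 1.45-fold (a log2 change of 0.54 with SE 0.07; adjusted p = 0.00748).

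Il6st, the gp130 chain with which both receptors signal (10813007), was bright on every array, at 8.98, 8.80 and 8.93 with fibrinogen and 8.77, 8.87 and 8.80 in control. The groups overlapped, and the log2 fold change was 0.09 (95% interval -0.10 to 0.28, adjusted p = 0.594), an interval that lies below the changes of Lifr and Cntfr. The ligand gene Lif (10773853) stood below the control median at 4.71 ± 0.12 with fibrinogen and 4.64 ± 0.17 in control (SD, n = 3 each). Cntf (10729024) averaged 6.48 ± 0.09 with fibrinogen and 6.41 ± 0.55 in control (SD, n = 3 each), the wide control spread coming from control 1 at 5.79, below controls 2 and 3 at 6.80 and 6.65. Neither ligand passed, both changing by 0.06 (log2) with 95% intervals of -0.20 to 0.33 for Lif and -0.52 to 0.64 for Cntf. The Cntf value rests on control 1: without it the log2 fold change was -0.25 (95% interval -0.48 to -0.02, adjusted p = 0.226). Il6r, the interleukin 6 receptor chain (10824530), was at 0.09 on the log2 fold change scale (95% interval -0.20 to 0.38).

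Some markers of glia and neurons changed on the same arrays. The mean log2 level of the 7 measured astrocyte markers lay between 8.48 and 8.53 on the fibrinogen arrays and between 8.19 and 8.25 on the control arrays. Of these 7, Gfap, Slc1a2 and Slc1a3 rose (log2 fold change 1.00, 0.84 and 0.61) and Aqp4, Gja1, S100b and Aldoc did not pass (-0.24, -0.10, -0.09 and 0.04), for a list median of 0.04. Of 7 OPC markers, Cspg4, Cspg5, Pdgfra and Olig1 rose (log2 fold change 0.63, 0.60, 0.58 and 0.46). Ptprz1, Gpr17 and Sox10 did not pass (0.27, -0.14 and -0.09), Gpr17 being lower on every fibrinogen array. Array means of the 7 were 10.27 to 10.32 with fibrinogen and 9.89 to 10.01 in control. Of all 7499 genes above the control median, 459 rose and 360 fell. Of 7 oligodendrocyte markers, 5 fell, namely Ugt8, Mag, Cldn11, Mbp and Cnp (log2 fold change -0.81, -0.63, -0.52, -0.40 and -0.39), with array means of 9.45 to 9.56 with fibrinogen and 9.94 to 10 in control. Of 6 neuronal markers, Syt1 fell (-1.16) and 5 did not pass, with array means of 7.31 to 7.47 with fibrinogen and 7.57 to 7.72 in control. The part of these markers in the changes of Lifr, Cntfr and the other called members was not tested.

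**Figure D2:**
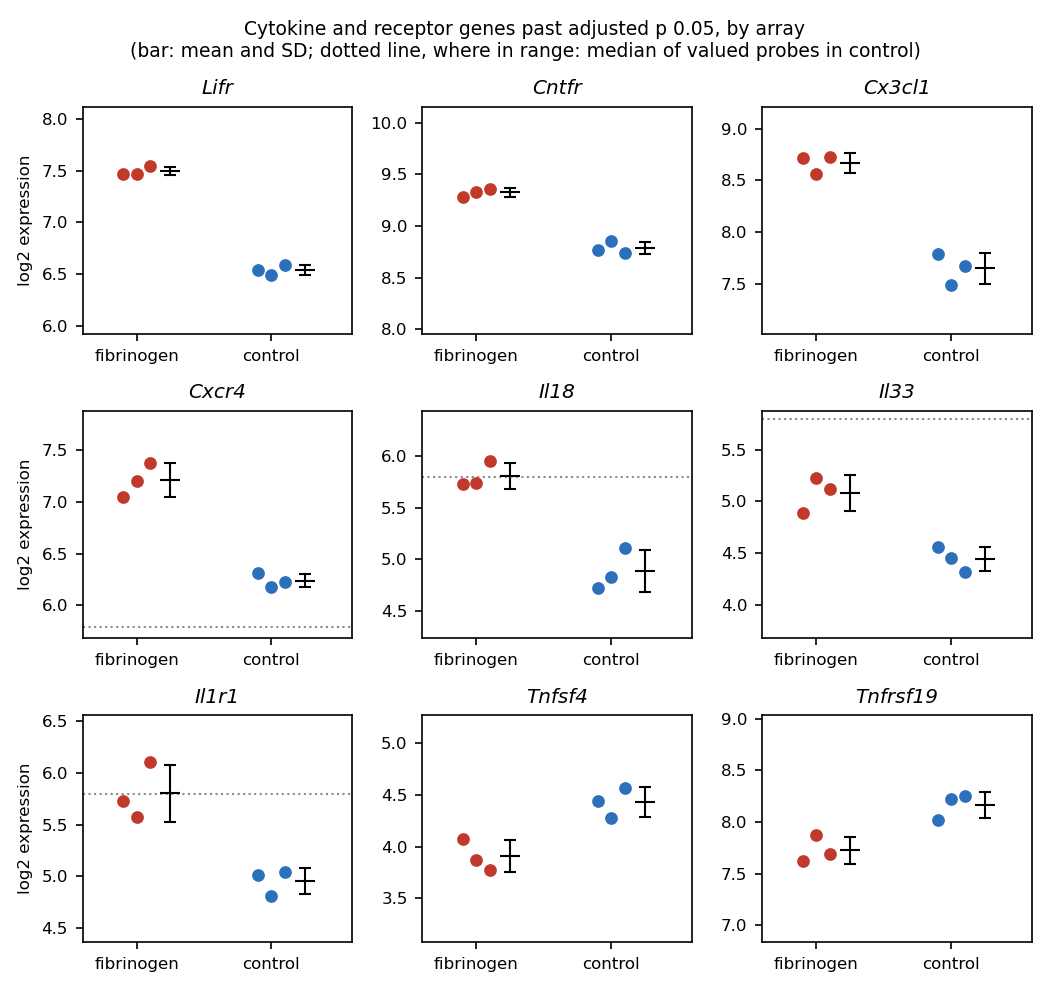
Log2 expression of the 9 called members on each array, fibrinogen (red) left of control (blue), with the mean and SD of each group (n = 3) as a black bar; every panel spans 2.2 log2 units. The dotted line marks the control median of 5.79 where it falls in range, and in all 9 panels the groups do not overlap.

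Among chemokines, 1 of 31 measured ligands rose. Cx3cl1, fractalkine, a membrane-bound chemokine whose receptor is typical of microglia (10809269), read 8.72, 8.56 and 8.73 on the fibrinogen arrays, against 7.79, 7.49 and 7.67 on the control arrays. The lowest fibrinogen array exceeded the highest control array by more than either group's own range. Its change of 2.03-fold, or 1.02 on the log2 scale with an SE of 0.10 (adjusted p = 0.00313), was the largest of the 141 members. The receptor gene Cx3cr1 (10920981) stood below the control median, at 4.70 ± 0.20 with fibrinogen and 4.64 ± 0.25 in control (SD, n = 3 each), and missed the threshold with a log2 change of 0.07 (95% interval -0.29 to 0.42).

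Ccl2, a chemokine that draws monocytes (10736697), did not pass the test. It read 6.54, 6.94 and 6.73 with fibrinogen and 6.49, 6.02 and 5.06 in control. Control 1 lay only just below the lowest fibrinogen array, while control 3 was far lower, and the control SD of 0.73 was the largest of the 141 members. The log2 fold change was 0.88 (SE 0.33, 95% interval 0.10 to 1.66, adjusted p = 0.182). Without control 3 the log2 fold change was 0.48 (95% interval 0.05 to 0.91, adjusted p = 0.219). Over the alternatives run the adjusted p lay between 0.0450, with an intensity trend in the variance model and the only value to pass, and 0.389, with the unmoderated test.

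The remaining chemokines did not pass and mostly lay within 0.25 of no change. Cxcl12, the ligand of CXCR4 (10858165), averaged 6.03 ± 0.31 with fibrinogen and 5.91 ± 0.14 in control, and Cxcl14 (10793953) 6.66 ± 0.10 with fibrinogen and 6.79 ± 0.03 in control (SD, n = 3 each). The log2 fold changes were 0.12 for Cxcl12 and -0.12 for Cxcl14 (95% intervals -0.26 to 0.50 and -0.31 to 0.07). Cxcl6, a neutrophil chemokine (10775922), was lower on every fibrinogen array but dim, at 3.71 ± 0.05 with fibrinogen and 3.94 ± 0.08 in control (SD, n = 3 each; adjusted p = 0.138). Cxcl1, Cxcl10 and Ccl3, neutrophil, interferon-induced and macrophage chemokines, were at -0.07, -0.12 and -0.05 on the log2 fold change scale and below the control median. Only 4 of the 31 chemokines, Cx3cl1, Cxcl14, Cxcl12 and Ccl2, lay above that median.

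Of 14 chemokine receptors, Cxcr4 rose and 13 did not pass. Cxcr4 (10767373), the receptor through which CXCL12 directs migration of progenitors, read 7.05, 7.20 and 7.38 with fibrinogen and 6.31, 6.18 and 6.23 in control. The groups lay apart by more than the range of either. The rise was 1.96-fold (log2 fold change 0.97, SE 0.10, adjusted p = 0.00345). Ackr3, the scavenging receptor of the same ligand (10925291), read 8.32, 8.07 and 8.43 with fibrinogen and 8.72, 8.40 and 8.37 in control. These groups overlapped, and the log2 fold change was -0.22 (95% interval -0.54 to 0.09, adjusted p = 0.406). The rest, with Ccr10 the only other above the control median, lay between -0.08 and 0.14 on the log2 fold change scale; Ccr9, a homing receptor of gut lymphocytes, was at 0.13 (adjusted p = 0.548).

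Among the 29 interleukins and their soluble inhibitors, Il18 and Il33 rose and 27 did not pass. Both belong to the interleukin 1 family, and both are made as intracellular proteins and released on cell damage or processing. Il18 (10909874) read 5.73, 5.74 and 5.95 with fibrinogen, against 4.72, 4.83 and 5.11 in control. All control arrays lay below the control median of 5.79, and the fibrinogen arrays lay close to it. Il18 rose 1.89-fold (log2 fold change 0.92, SE 0.12, adjusted p = 0.00671). Il33 (10714745) read 4.89, 5.23 and 5.12 with fibrinogen and 4.56, 4.45 and 4.32 in control, without overlap but below the median on every array. Its rise was 1.55-fold (log2 fold change 0.64, SE 0.11, adjusted p = 0.0202). It was lost on leaving out control 2, control 3, fibrinogen 2 or fibrinogen 3 (adjusted p = 0.0545, 0.0680, 0.0712 and 0.0812).

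The measured partner genes of Il18 did not pass. For the other interleukin that rose, the specific receptor gene Il1rl1 had no value on any array and was not analysed here. The receptor chain gene Il18r1 and the soluble inhibitor gene Il18bp, Il18r1 being added as a partner with its values known, had log2 changes of -0.14 and 0.03 (95% intervals -0.41 to 0.14 and -0.19 to 0.25). Il1b (10849841), the inflammatory cytokine released through the same processing enzyme as interleukin 18, averaged 4.78 ± 0.13 with fibrinogen and 4.74 ± 0.16 in control (SD, n = 3 each; log2 fold change 0.04, 95% interval -0.22 to 0.30). Il21 (10822914), a T cell cytokine, was at 5.27, 4.88 and 5.67 with fibrinogen and 4.35, 4.43 and 4.84 in control. Its lowest fibrinogen array lay just above its highest control array, and the log2 fold change of 0.73 (SE 0.21) did not pass (adjusted p = 0.0969), except with an intensity trend in the variance model (adjusted p = 0.0276). Il34, an alternative ligand of the CSF-1 receptor, and the anti-inflammatory Il10 were at 0.25 and -0.06 (adjusted p = 0.400 and 0.903). Only Il18bp of the 29 lay above the control median, with Il17b, an interleukin 17 relative, just below it (log2 fold change 0.07, adjusted p = 0.787).

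**Figure D3:**
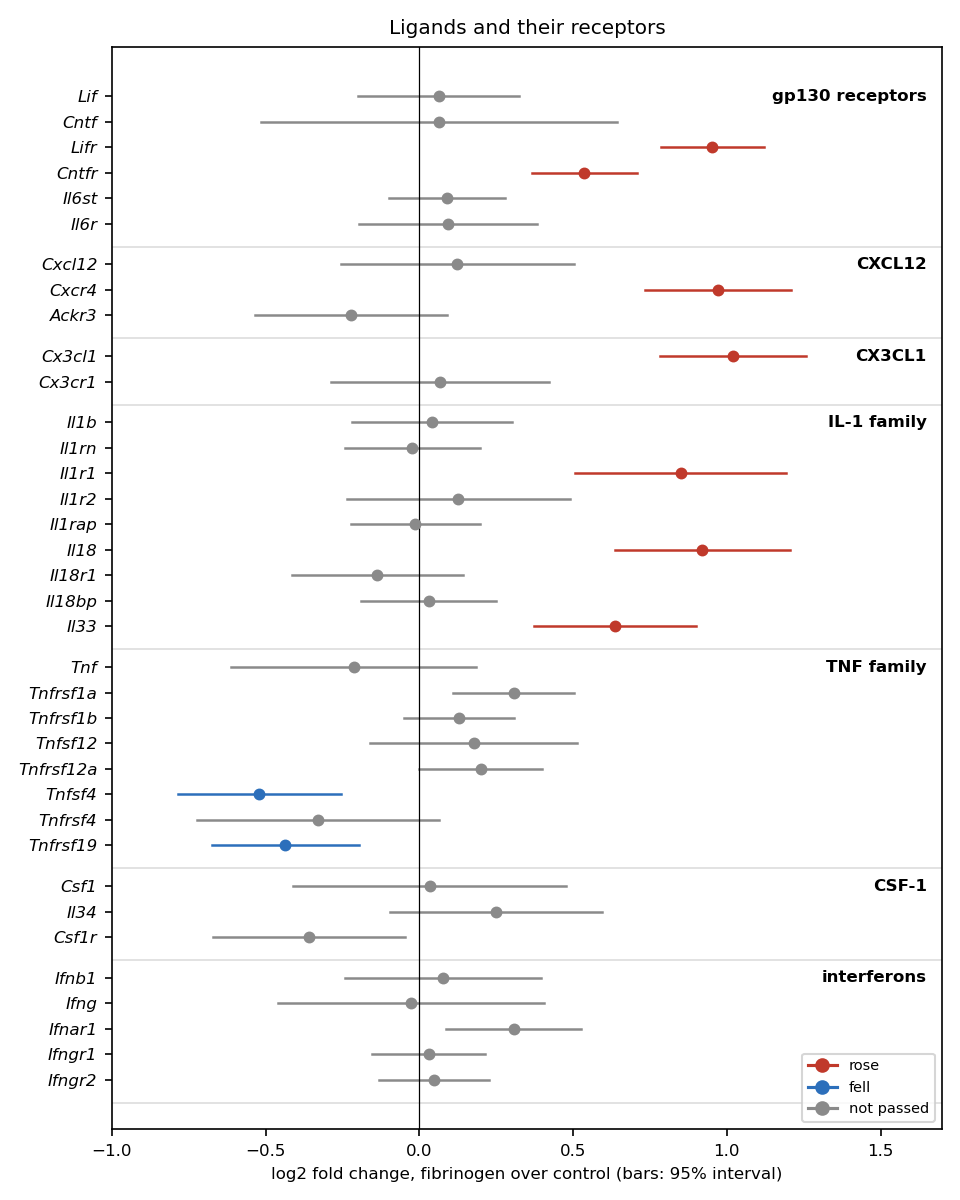
Log2 fold change, fibrinogen over control (horizontal axis), with its 95% interval, for ligands and receptors grouped by signalling system; red rose, blue fell, grey did not pass. In the gp130, CXCL12 and IL-1 groups the receptor genes Lifr, Cntfr, Cxcr4 and Il1r1 lie between 0.54 and 0.97. Il6st, Il6r, Il1rap, Ackr3, Il1r2 and Il18r1, receptor genes of the same groups, lie between -0.22 and 0.13. The ligand genes Lif, Cntf, Cxcl12 and Il1b lie between 0.04 and 0.12, whereas Il18 and Il33, ligand genes of the IL-1 group, rose (0.92 and 0.64). In the CX3CL1 group the ligand gene Cx3cl1 rose (1.02) and the receptor gene Cx3cr1 did not pass (0.07).

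Of the 25 interleukin receptors, Il1r1 rose and 24 did not pass. Il1r1, the signalling receptor of interleukin 1 (10922826), read 5.73, 5.57 and 6.11 with fibrinogen, against 5.01, 4.81 and 5.04 in control. Fibrinogen 3 was the highest array and all control arrays lay below the control median. The rise was 1.80-fold (log2 fold change 0.85, SE 0.15, adjusted p = 0.0182), and was lost without control 2 (adjusted p = 0.0546) or fibrinogen 1 (adjusted p = 0.0641). Its accessory chain Il1rap (10755013), which interleukin 1 and interleukin 33 receptors need to signal, was bright and level, at 8.24 ± 0.13 with fibrinogen and 8.25 ± 0.05 in control (SD, n = 3 each; log2 fold change -0.01, 95% interval -0.22 to 0.20). The decoy receptor gene Il1r2 and the antagonist gene Il1rn, added as partners with their values known, had log2 changes of 0.13 and -0.02 (adjusted p = 0.708 and 0.921).

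Il1rapl1, a synapse-organising relative of the interleukin 1 receptor (10938291), read 4.94, 4.84 and 5.07 with fibrinogen and 5.41, 5.36 and 5.23 in control. The fibrinogen arrays were lower without overlap, by a log2 fold change of -0.38 (SE 0.09), just short of the threshold (adjusted p = 0.0523). It passed with the dimmest 25% of probes left out (adjusted p = 0.0320) and with arrays centred on their medians (adjusted p = 0.0385). Il20ra, dim on all arrays, was at -0.16 (adjusted p = 0.275). Of the 25 receptors, 6 lay above the control median.

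The TNF superfamily held the members that fell. Tnfsf4, the T cell costimulatory ligand OX40L (10765092), read 4.08, 3.87 and 3.78 with fibrinogen and 4.44, 4.28 and 4.57 in control, below the control median throughout. In log2 terms it fell by 0.52 with an SE of 0.11 (adjusted p = 0.0389), and no fibrinogen array overlapped a control array. Tnfrsf19, the receptor TROY, which belongs to the Nogo receptor complex of neurons and is linked to Wnt signaling (10784334), read 7.62, 7.87 and 7.69 with fibrinogen and 8.02, 8.22 and 8.25 in control. It was bright in both groups, did not overlap between them, and fell by 0.44 (SE 0.10, adjusted p = 0.0481). Neither fall was stable: each lost its call with 5 of the 6 arrays left out in turn, the exception being control 2 for Tnfsf4 and control 1 for Tnfrsf19 (highest adjusted p = 0.127 and 0.159, without fibrinogen 3 and fibrinogen 1). Each was also lost with p adjusted over all valued probes.

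Of the other 13 TNF family receptors, 0 passed in limma. Tnfrsf1a, the main TNF receptor (10858967), read 8.35, 8.26 and 8.49 with fibrinogen and 8.06, 8.09 and 8.03 in control. The groups lay apart, with a log2 fold change of 0.31 (SE 0.08, adjusted p = 0.0796). It passed when the dimmest 25% of probes or all genes below the median were left out (adjusted p = 0.0490 and 0.0235) or with an intensity trend (adjusted p = 0.0178). Tnfrsf9, the costimulatory receptor 4-1BB, was at 0.44 (adjusted p = 0.0805) from dim levels of 3.90 ± 0.22 with fibrinogen and 3.46 ± 0.10 in control (SD, n = 3 each), and passed with quantile normalization applied again (adjusted p = 0.0406). Tnfrsf12a, the TWEAK receptor, Tnfrsf21, death receptor DR6, and Tnfrsf1b, the TNF receptor of restricted expression, were at 0.20, 0.17 and 0.13 (adjusted p = 0.237, 0.286 and 0.400), each without overlap. In all, 6 of the 14 receptors (42.9%) had groups that did not overlap, 5 of them higher with fibrinogen, beside 27.0% of all genes, 37.1% of those above the control median and 14.0% of those below it.

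The TNF family ligands other than Tnfsf4 overlapped between groups. Tnf itself (10828021) read 4.43, 4.87 and 4.35 with fibrinogen and 5.02, 4.70 and 4.57 in control, below the control median on every array (log2 fold change -0.21, 95% interval -0.61 to 0.18). Tnfsf12, TWEAK (10744171), averaged 6.73 ± 0.06 with fibrinogen and 6.55 ± 0.29 in control (SD, n = 3 each; log2 fold change 0.18, 95% interval -0.16 to 0.51). Tnfsf15 was at -0.09 (adjusted p = 0.735). Tnfrsf4, the receptor of the Tnfsf4 product, chosen as a partner after the values were seen, was at -0.33 (95% interval -0.72 to 0.06).

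**Figure D4:**
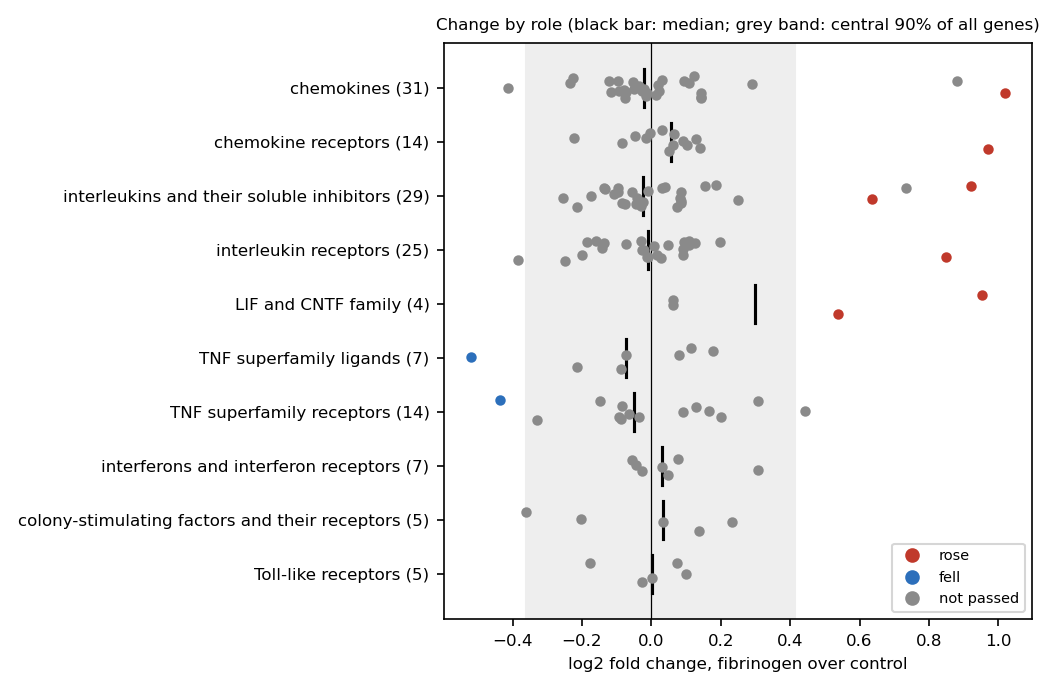
Log2 fold change, fibrinogen over control (horizontal axis), of every member by role, with the number of measured members in brackets; black bars are medians and the grey band holds the central 90% of all genes, from -0.36 to 0.41. The LIF and CNTF family has the highest median, 0.30 over 4 genes, and the medians of the other roles lie between -0.07 and 0.06. No gene lies near that 0.30: Lif and Cntf are at 0.06 each and the called Cntfr and Lifr at 0.54 and 0.95. Il6st and Il6r are counted with the interleukin receptors.

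None of the 7 interferon genes and interferon receptors passed in limma, 1 of them having an unadjusted p under 0.05. That one, Ifnar1, a chain of the type I interferon receptor (10750200), read 7.58, 7.63 and 7.54 with fibrinogen and 7.38, 7.11 and 7.34 in control. The groups did not overlap, and the log2 fold change was 0.31 (SE 0.09, adjusted p = 0.108). It passed without genes below the median (adjusted p = 0.0373) and with an intensity trend (adjusted p = 0.0492). The interferon gamma receptor chains Ifngr1 and Ifngr2 were bright and changed by 0.03 and 0.05 (95% intervals -0.15 to 0.21 and -0.13 to 0.23). The ligand genes Ifnb1 and Ifng lay below the control median, at 0.08 and -0.03 (adjusted p = 0.807 and 0.956). Ifna4 and Ifna5 belong to a cluster of near-identical genes whose probes may share signal; their used probes were at -0.06 and -0.04, and their other probes between -0.31 and -0.02.

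Colony-stimulating factors and Toll-like receptors did not pass either. Csf1, the growth factor of microglia (10825869), averaged 6.95 ± 0.19 with fibrinogen and 6.91 ± 0.37 in control (SD, n = 3 each; log2 fold change 0.03, 95% interval -0.41 to 0.48). Csf1r, its receptor and a microglia marker (10802065), read 4.25, 4.25 and 3.96 with fibrinogen and 4.75, 4.35 and 4.44 in control, lower without overlap (log2 fold change -0.36, SE 0.13, adjusted p = 0.175). Of the 5 genes in this family, 0 passed in limma, and 1, Csf1r, had an unadjusted p under 0.05; Csf3, Csf2rb and Csf3r were at -0.20, 0.23 and 0.14. All 5 measured Toll-like receptors (Tlr2, Tlr4, Tlr6, Tlr7 and Tlr12) lay below the control median and overlapped between groups, with log2 fold changes from -0.18 to 0.10 and 0 unadjusted p-values under 0.05.

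Markers of microglia, the brain cell type best known for several of these genes, were dim, and most moved little. Of 20 measured microglia and macrophage markers, 18 lay below the control median, Itgam and Cd53 fell (log2 fold change -0.60 and -0.92), and 18 did not pass. Itgam and Cd53 were dim in control, at 3.70 and 4.22. The 2 calls are 10% of the list, beside 7.16% of all genes and 2.34% of those below the control median. The median log2 fold change was -0.06, with 4 of the 20 above 0, among them Cd14 at 0.39. P2ry12, which lay above the control median, was at -0.47. Neither Cd14 nor P2ry12 passed, and the groups overlapped for both. Groups did not overlap for 3 of the 20 (15%), all 3 lower with fibrinogen. This share stands beside 27.0% of all genes and 14.0% of those below the control median. The mean log2 level of the markers lay between 4.40 and 4.43 on the fibrinogen arrays and between 4.49 and 4.65 on the control arrays, control 1 being highest. None of the markers is at 0 on this scale, which has no true zero. Lymphocyte markers averaged 3.831 to 4.011 on the fibrinogen arrays and 3.924 to 3.996 on the control arrays. The part of the microglia markers in the members' changes was not tested.

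Genes that carry these signals inside the cell were taken in 3 lists. Of 23 measured JAK-STAT genes, which pass on signals from gp130 and interferon receptors, 0 passed in limma, beside 7.16% of all genes, and the median log2 fold change was 0.01. An unadjusted p under 0.05 was found for 7 of the 23, 5 higher and 2 lower with fibrinogen, and for 21.1% of all genes. Among genes above the control median it was found for 2087 of 7499. The groups did not overlap for 9 of the 23, or 39.1%, against 27.0% of all genes; 16 of the 23 lay above the control median, where 37.1% of all genes did not overlap. Some of these are named here after their values were seen. Socs3, a feedback inhibitor that gp130 signalling induces (10749372), read 8.0, 7.89 and 8.24 with fibrinogen and 7.24, 7.80 and 7.54 in control (log2 fold change 0.52, SE 0.16, adjusted p = 0.109). Socs2, Jak1, Jak2 and Stat3 were at 0.37, 0.26, 0.22 and 0.18 (adjusted p = 0.0829, 0.0869, 0.135 and 0.233), and Stat2 and Stat6 at -0.31 and -0.28 (adjusted p = 0.136 and 0.173). The bright members Ptpn11 and Pias2 were level at -0.01 and 0.01. Socs2, Socs3, Jak1 and Jak2 passed when genes below the median were left out (adjusted p = 0.0279, 0.0444, 0.0239 and 0.0425), and all of these but Jak2 with an intensity trend.

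Of 30 measured NF-kB genes and adaptors of Toll, interleukin 1 and TNF receptors, 2 fell and 28 did not pass (median log2 fold change -0.05). The 2 are 6.67% of the list, near the 7.16% of all genes. Ripk2, a kinase downstream of NOD receptors (10875656), read 6.29, 6.06 and 6.17 with fibrinogen and 6.75, 6.73 and 6.51 in control and fell by 0.49 (SE 0.10, adjusted p = 0.0323). Chuk, the kinase IKK-alpha that activates NF-kB (10715497), read 7.65, 7.60 and 7.74 with fibrinogen and 8.11, 8.01 and 7.95 in control and fell by 0.36 (SE 0.08, adjusted p = 0.0432). The call of Ripk2 held only without control 3 among the left-out arrays, and that of Chuk with none of them (highest adjusted p = 0.112 and 0.145). Rela, the NF-kB subunit p65, was at 0.08 (95% interval -0.13 to 0.28), and Tab2, an adaptor of the TAK1 kinase, at -0.27 (SE 0.07, adjusted p = 0.0621). Tab2 passed under 5 alternatives, with adjusted p from 0.00383 with an intensity trend to 0.0374 with centred arrays, and was the only call of the list in the unmoderated test (0.0241). Fadd, a death receptor adaptor named after its values were seen, was at 0.45 and passed under 3 alternatives, without the dimmest probes, without genes below the median and with an intensity trend. Traf4 and Nfkbib, named likewise, were at -0.26 and -0.22 and passed without genes below the median and with an intensity trend. Groups did not overlap for 9 of the 30 (30%), 3 higher and 6 lower, beside 27.0% of all genes and 37.1% of those above the control median.

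Of 25 measured interferon-induced genes, 1 rose and 24 did not pass (median log2 fold change 0.00), beside 4.16% of all genes that rose. Ifitm2, an interferon-induced membrane protein (10726679), read 5.64, 5.46 and 5.20 with fibrinogen and 4.73, 5.04 and 4.65 in control (log2 fold change 0.63, SE 0.15, adjusted p = 0.0480). Its call held only without control 2 among the left-out arrays (highest adjusted p = 0.148) and was lost with arrays centred on their medians (adjusted p = 0.0606). The Ifitm genes are closely related in sequence, so the probe's signal may be shared. B2m, a component of MHC class I molecules, and Irf9, an interferon regulatory factor, were at 0.15 and 0.26 (adjusted p = 0.377 and 0.296). Ifi27, named after its values were seen, was higher on every fibrinogen array but did not pass (log2 fold change 0.49, adjusted p = 0.106). It passed without genes below the median, where it was the only call of the list (adjusted p = 0.0427), and with an intensity trend.

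**Figure D5:**
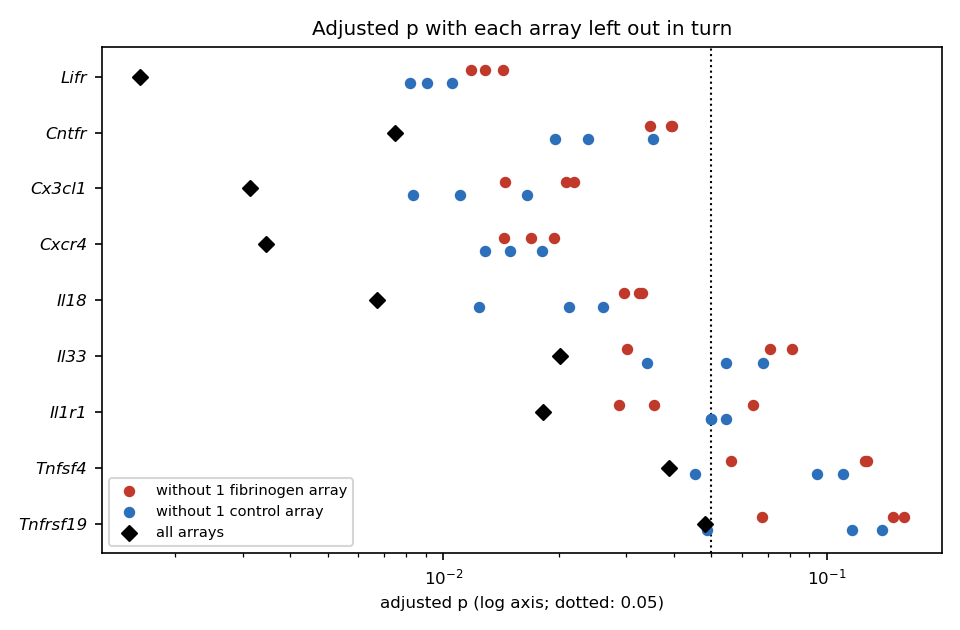
Adjusted p of the 9 called members (horizontal log axis) with all 6 arrays (black diamonds) and with each array left out in turn (red, without a fibrinogen array; blue, without a control array); the dotted line is 0.05. Lifr, Cntfr, Cx3cl1, Cxcr4 and Il18 stay left of the line throughout, with a highest value of 0.0395 for Cntfr.

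The calls differed in stability. Lifr, Cntfr, Cx3cl1, Cxcr4 and Il18 kept their calls with each array left out (highest adjusted p = 0.0143, 0.0395, 0.0220, 0.0194 and 0.0329). The first 4 of these also passed under each of the other alternatives run, including the unmoderated test, where they were the only members called; Il18 missed there (adjusted p = 0.0583). With p adjusted over all 23631 valued probes, the 7 rises kept their calls and both falls lost theirs.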

How the data were processed

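Affymetrix rat gene arrays were hybridised with RNA from OPCs of 2 groups, 3 fibrinogen and 3 control arrays, assigned by their titles. The authors deposited log2 expression values; per the submitters' processing notes, RMA and limma were used (no version stated), and a genome build is not given in the sources used here. Values exist for 23631 of 26312 probes; the other 2681 are empty on all arrays. RMA compresses changes of dim probes. Precision is limited by the number of arrays: the median SE of a log2 fold change was 0.10 over all genes and 0.12 over the members.

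Probes were named from the platform annotation; all 141 members matched a current rat gene record. Probes with several symbols were left out, and a gene was represented by its brightest probe on average. The 2 groups were compared, fibrinogen minus control, with limma 3.58.1 under R 4.3.3 (lmFit, eBayes, two-sided, no covariate). Benjamini-Hochberg adjustment was made over 13355 genes, with a threshold of 0.05. The code was also run on simulated independent normal noise with added shifts, which checks the code and not the calls on these arrays. Named are members past the threshold, in each role the 3 with the smallest p and the 2 brightest in control, a list of well-known members, and in 3 pathway lists the calls and the 2 brightest. Il17rd and Ifnar2 of that list were not analysed here. Members and lists were chosen with earlier results of these data known. Alternatives concern probe choice, dim probes, scaling, the variance model, the replicate block and each array left out.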

Additional observations from a re-analysis of the deposited data

How the results depend on the processing

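The number of members called was 4 with the unmoderated test and between 6 and 13 under the other alternatives, against 9 as reported; with 1 array left out it ranged from 6 to 8. All genes called numbered 1508 without genes below the median, 1639 with an intensity trend, 500 with the unmoderated test, and 358 to 592 with 1 array left out, against 956. With arrays centred on their medians, 434 of all genes rose and 516 fell, against 555 and 401. Deviations of same-numbered arrays from their group means correlated at 0.02, -0.14 and -0.07 for numbers 1, 2 and 3. With 3 arrays per group this cannot show whether the numbers pair the samples, which stays unknown. With the replicate block, 343 genes and 6 members were called, and none of the 3 NF-kB or interferon-list calls. JAK-STAT calls numbered 4 without genes below the median and 3 with an intensity trend, against 0. NF-kB calls numbered 4 without the dimmest 25% of probes, 6 without genes below the median, 6 with an intensity trend, 1 with the unmoderated test, 0 with p adjusted over all probes, 0 with the replicate block and 0 to 1 with 1 array left out, against 2. Interferon-induced calls numbered 0 with centred arrays, 0 with quantile normalization applied again, 2 with an intensity trend, 0 with the unmoderated test, 0 with p adjusted over all probes, 0 with the replicate block and 0 to 1 with 1 array left out, against 1. Members above the median in control numbered 18 by the median of the genes tested and 22 if required on each control array, against 26, and 24 to 28 with 1 control array left out. Groups did not overlap for 10 of the 26 members above the median (38.5%, beside 37.1% of all genes above it), against 23 of 141. Leaving out 1 array removes both a sample and the values of that array, and the part of each in the lower counts was not tested. Leaving out dim genes changed both the number of genes tested and the variance estimate; the cause of that and the other differences was not tested. No called direction turned under any alternative run. Dim members, 115 of 141, may lie at background, where real changes are compressed.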
